A study of Mus musculus with 17 samples.

Results

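Glutathione S-transferases, UDP-glucuronosyltransferases and sulfotransferases attach glutathione, glucuronic acid or sulfate to drugs, hormones, bile pigments and reactive metabolites. The products are more soluble and leave the cell through export pumps. In the kidney these enzymes are found above all in the proximal tubule, which takes up and secretes organic anions. Their genes lie in clusters of close relatives, and the Ugt1a genes share their last exons.

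The genes described here are the protein-coding genes whose symbol starts with Gst, Mgst, Ugt or Sult, together with Gm3776, a Gsta-like gene. Of 53313 genes present in all count tables, 70 met this rule, namely 27 glutathione S-transferases (GST), 22 UDP-glucuronosyltransferases (UGT) and 21 sulfotransferases (SULT). The rule used no measured value. A further 8 pseudogene or non-coding symbols with these prefixes were left out.

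The study asked how tubular cells change in senescence and in kidney ageing. It sequenced RNA from primary tubular epithelial cells (PTEC) of wild-type C57BL/6Rj mice and from whole kidneys of wild-type male mice of the same strain. Non-senescent PTEC were harvested untreated at day 6 (n = 4). Senescent PTEC were γ-irradiated with 10 Gy and harvested at day 16 (n = 4), so irradiation and time in culture cannot be told apart. Kidneys were taken at 3, 12 and 24 months (n = 3 mice each), using part of the right kidney.

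Total counts per library ranged from 26963442 to 35409144 in PTEC and from 37311247 to 66894790 in kidneys. The senescence marker Cdkn1a rose from 313 ± 75.3 to 772 ± 115 CPM (counts scaled to library size, SD, n = 4) in senescent PTEC. Proximal tubule identity of the cultures was limited. Of 13 proximal tubule markers, 8 reached 1 CPM in non-senescent and 5 in senescent PTEC, against 13 in every kidney group. The transporter gene Slc22a6 lay between 0 and 0.332 CPM in non-senescent PTEC, while the endocytic receptor gene Lrp2 lay between 65.5 and 539 CPM. Non-senescent replicate 4 stood apart, with a summed proximal tubule level of 833 CPM against 229 to 279 CPM in the other cultures of its group. In bulk RNA, fewer cells of a type and less RNA per cell cannot be told apart.

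Among the members, 36 had a mean of at least 1 CPM in non-senescent PTEC, 33 in senescent PTEC and 36 at each kidney age. Between non-senescent PTEC and 3-month kidneys, 29 genes reached this level in both. Of this pair of groups, only the PTEC had Gm3776, Gsta1, Mgst2, Sult4a1, Ugt1a1, Ugt1a2 and Ugt2b35 at this level, and only the kidneys had Gsto2, Gstp2, Ugt1a10, Ugt1a6b, Ugt2b38, Ugt3a1 and Ugt3a2. In all 5 groups 24 genes stayed under 1 CPM, most of them of the Sult2a, Sult3 and Sult6 families and the Ugt2a group. No read was counted for 7 of these in any of the 17 libraries (Sult2a2, Sult2a5, Sult2a6, Sult2a8, Sult3a1, Ugt2a1 and Ugt2a2). A count of 0 allows up to 0.0448 to 0.0804 CPM in a kidney library and up to 0.0847 to 0.111 CPM in a PTEC library, for counting error only. PTEC and kidneys were normalised apart, so their levels are set side by side without a test.

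**Figure D1:**
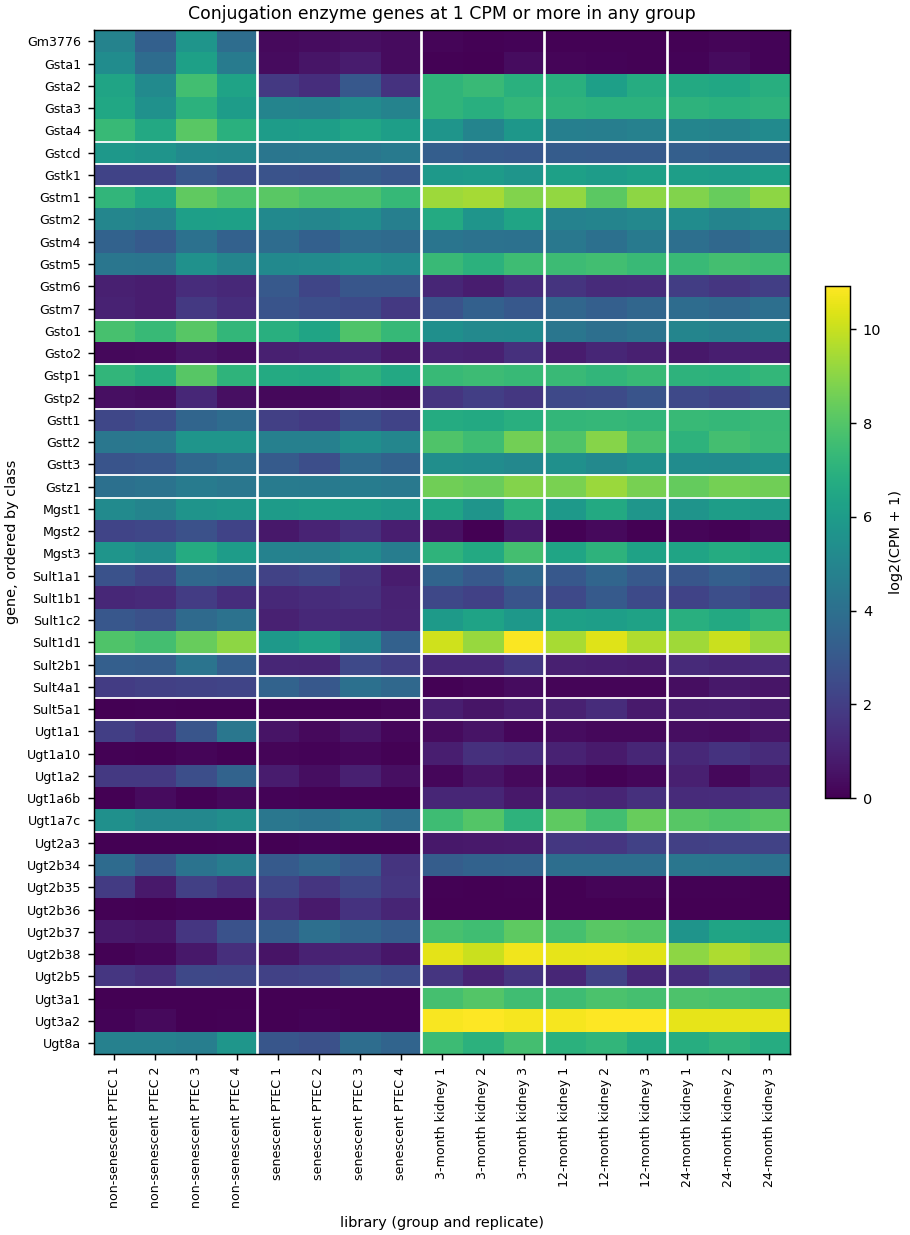
Level of the 46 members whose mean reached 1 CPM in 1 or more groups (rows, ordered by class) in each of the 17 libraries (columns), as log2(CPM + 1). Gsta1 and Gm3776 reach 1 CPM in non-senescent PTEC alone, whereas Ugt3a1 and Ugt3a2 are high in the kidneys and near 0 in PTEC, and Ugt2b38 is high in the kidneys and at most 1.77 CPM in PTEC.

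Per exon length, the most abundant member in 3-month kidneys was Ugt2b38, a steroid and xenobiotic glucuronosyltransferase, at 728 ± 159 RPKM (the count scaled to exon length and library size, SD, n = 3). It was followed by Ugt3a2, which belongs to a UGT family that uses sugars other than glucuronic acid, at 590 ± 29.2 RPKM. The sulfotransferase Sult1d1 came next at 484 ± 256 RPKM, and Gstm1, a mu-class GST, at 409 ± 86.3 RPKM. Each of these levels differed from the next by less than the larger of their SDs. In non-senescent PTEC the order was Sult1d1 (132 ± 60.2 RPKM), Gstm1 (131 ± 62.5 RPKM), Gsta4 (130 ± 63.2 RPKM) and Gstp1 (108 ± 45.6 RPKM), which did not differ beyond their spread. In senescent PTEC Gstm1 led at 153 ± 33.2 RPKM, before Gsto1 at 74.2 ± 33.3 RPKM.

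The classes were shared out differently in culture and tissue. UGT genes together held 4036 ± 204 CPM in 3-month kidneys but 108 ± 38.0 CPM in non-senescent PTEC. Ugt3a2 accounts for much of this, with 1804, 1933 and 1758 CPM in the 3 young kidneys and 0 to 0.197 CPM in non-senescent PTEC. Conversely, Gsto1, an omega-class GST, had 150 to 274 CPM in non-senescent PTEC and 34.3 to 41.8 CPM in 3-month kidneys. All members together took 0.172% ± 0.0538 of the counts in non-senescent PTEC, 0.101% ± 0.0173 in senescent PTEC, 0.782% ± 0.101 at 3 months, 0.755% ± 0.0982 at 12 months and 0.584% ± 0.0504 at 24 months.

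Several members are near copies, which limits how far their reads can be kept apart. The sequences below show this for the alpha-class genes with the largest falls in senescent PTEC. Gsta1 (chr9:78230656-78242684, plus strand, GRCm38), Gm3776 (chr9:78257129-78269166, plus strand) and Gsta2 (chr9:78331018-78355788, minus strand) lie side by side on chromosome 9. Their coding sequences were 99.7% identical between Gsta1 and Gm3776 and 97.6% identical between Gsta1 and Gsta2. The lines give bases 575 to 664 of the GENCODE coding sequence, 5′ to 3′, with the 6 positions at which any of the 3 genes differs in capitals.
Gsta1: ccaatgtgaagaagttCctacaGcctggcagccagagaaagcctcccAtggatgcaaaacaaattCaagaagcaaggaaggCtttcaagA
Gm3776: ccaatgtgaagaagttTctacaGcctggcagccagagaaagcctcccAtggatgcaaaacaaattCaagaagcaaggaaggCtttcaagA
Gsta2: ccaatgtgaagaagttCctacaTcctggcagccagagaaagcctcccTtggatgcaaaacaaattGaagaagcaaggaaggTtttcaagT
In this stretch Gm3776 differed from Gsta1 at 1 position and Gsta2 at 5. Over whole transcripts, 84.5% of the 76-base windows of Gsta1 and 89.0% of those of Gm3776 also occurred in another gene, 76 bases being the read length. For Gsta2 this share was 36.2%, and for Gsta3 and Gsta4 it was 0%. Levels of Gsta1 and Gm3776 are therefore uncertain one by one.

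The same count was made for the other families. Gstp2 shared 50% and Gstp1 29.0% of these windows, mostly with each other. Ugt2b38 shared 27.8% and Ugt2b5 30.1%, while Ugt2b37 shared 6.05%. The Ugt1a genes overlap on chromosome 1 and shared 51.1% to 78.8% of their windows. Only 17.3% of the exon bases of Ugt1a1 and 45.4% of those of Ugt1a7c belong to no other gene, so the level of a single Ugt1a gene rests on part of its transcript.

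Next, senescent PTEC were compared with non-senescent PTEC. More conjugation genes fell than rose. Of the 70 members, 41 passed the filter on low counts, and of these 18 were down-regulated, 7 were up-regulated and 16 were not called (edgeR's quasi-likelihood test, adjusted p under 0.05 and absolute log2 fold change above 0.5). Of all 15434 genes tested, 39.8% were called, 20.1% up and 19.7% down. The share of tested members called was 61.0%. The median log2 fold change of the tested members was −0.65, against −0.002013 over all genes. Groups did not overlap for 22 of the tested members, against 42% of all genes tested. By family, 9 of 24 tested GST genes fell and 4 rose, 5 of 11 tested UGT genes fell and 2 rose, and 4 of 6 tested SULT genes fell and 1 rose.

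**Figure D2:**
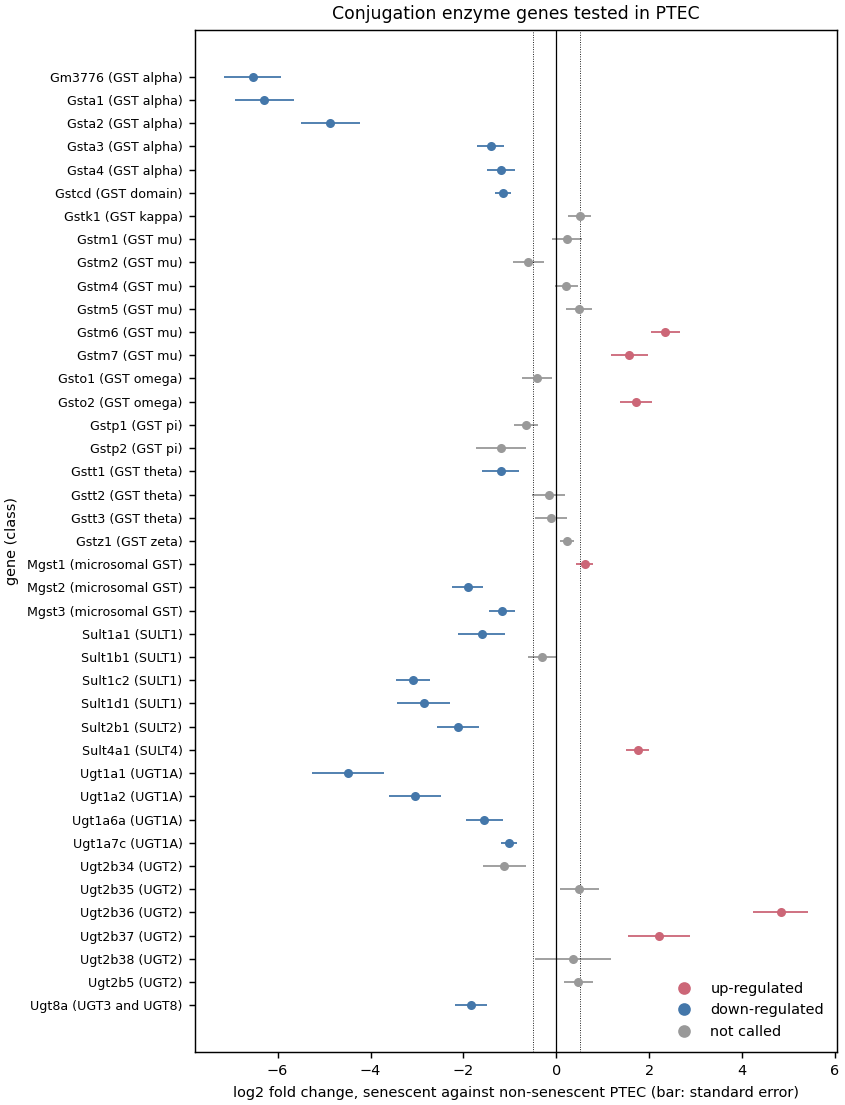
Log2 fold change of each of the 41 tested members in senescent against non-senescent PTEC (points, with standard error as bars), ordered by class, with dotted lines at 0.5 in each direction. The 5 alpha-class GST genes and the 4 tested Ugt1a genes all lie to the left, whereas Gstm6, Ugt2b36 and Ugt2b37 lie farthest to the right.

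All 5 alpha-class GST genes fell. This class handles lipid peroxidation products and steroid intermediates. Gsta1 was at 38.8, 13.6, 72.2 and 22.0 CPM in the 4 non-senescent cultures and at 0.257, 0.536, 0.783 and 0.242 CPM in the senescent ones, a log2 fold change of −6.29 ± 0.63 (SE, edgeR, adjusted p = 7.09e-05). Gm3776 went from 28.5, 9.26, 51.4 and 14.1 CPM to 0.225, 0.268, 0.351 and 0.242 CPM (log2 fold change −6.54 ± 0.61, adjusted p = 4.86e-05). Gsta2 went from 82.9, 36.1, 194 and 79.7 CPM to 2.54, 1.68, 7.08 and 2.004 CPM (log2 fold change −4.87 ± 0.64, adjusted p = 0.000317). No senescent culture reached the lowest non-senescent one for these genes, and in both groups replicate 3 was the highest. With Gsta1, Gm3776 and Gsta2 summed into 1 gene, the log2 fold change was −5.30 (adjusted p = 0.000176). Gsta3 and Gsta4 fell less.

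Gsta4, which prefers the lipid aldehyde 4-hydroxynonenal, remained abundant, at 64.3 to 86.5 CPM in senescent cultures after 94.4 to 276 CPM in non-senescent ones (log2 fold change −1.19 ± 0.30, adjusted p = 0.00983). Gsta3 had a log2 fold change of −1.41 ± 0.29 (adjusted p = 0.00346). Without non-senescent replicate 3, which was highest for each of these genes, the log2 fold changes of Gsta1, Gsta2 and Gsta4 were −5.73, −4.30 and −0.81, all still called.

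The mu class conjugates epoxides and other electrophiles. Of 6 tested mu genes 2 rose and none was called lower. Gstm6 rose from 0.953, 0.821, 1.65 and 1.403 CPM to 7.40, 3.85, 6.62 and 6.63 CPM (log2 fold change 2.35 ± 0.31, adjusted p = 0.000329). Gstm7 had 0.853 to 2.55 CPM before and 2.49 to 6.18 CPM after, so the groups overlapped slightly (log2 fold change 1.57 ± 0.40, adjusted p = 0.0106). Both are minor transcripts. Gstm1, the main one, was not called, with 93.2 to 304 CPM in non-senescent and 160 to 279 CPM in senescent cultures (log2 fold change 0.23 ± 0.33, adjusted p = 0.604).

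Of the remaining soluble GST genes, Gstcd, which encodes a protein with a GST-like C-terminal domain, fell from 33.3 to 54.9 CPM to 18.6 to 21.7 CPM (log2 fold change −1.15 ± 0.18, adjusted p = 0.000801). Gstp1, the pi-class enzyme, had 116 to 271 CPM in non-senescent and 94.2 to 132 CPM in senescent cultures and missed the threshold (log2 fold change −0.65 ± 0.26, adjusted p = 0.0669). Its near copy Gstp2 missed it as well (adjusted p = 0.0978). Without non-senescent replicate 2 Gstp1 passed it (adjusted p = 0.0356), as it did with no filter on low counts (adjusted p = 0.0476). Gsto1, Gstt2 and Gstz1, the most abundant genes of the omega, theta and zeta classes, were not called.

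Replicate numbers were taken to pair the cultures, which the labels do not state. A fit with the pair as a block called 28 members, 24 of them shared with the 25 called without it. The block added Gstp1 (adjusted p = 0.00732) and Gstp2 (adjusted p = 0.0335) as lower, and Gstk1 (adjusted p = 0.0348) and Gstm5 (adjusted p = 0.0256) as higher. Sult1a1 was the only gene that it removed (adjusted p = 0.0636). Gstk1 and Gstm5 were also called, as higher, in the fit without the block when non-senescent replicate 3 was left out (adjusted p = 0.0273 and 0.0107).

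Microsomal GST genes encode membrane enzymes that also reduce lipid peroxides or act in leukotriene synthesis. Mgst1 rose from 36.4, 29.6, 49.7 and 53.6 CPM to 62.4, 68.9, 67.2 and 59.9 CPM (log2 fold change 0.61 ± 0.19, adjusted p = 0.0243), a change whose call was lost without non-senescent replicate 1 (adjusted p = 0.0673) or 2 (log2 fold change 0.47), or senescent replicate 1 (adjusted p = 0.0509) or 2 (adjusted p = 0.0583). Mgst2 fell from between 3.58 and 5.57 CPM to between 0.643 and 1.84 CPM (log2 fold change −1.91 ± 0.34, adjusted p = 0.00173). Mgst3 fell from between 40.2 and 104 CPM to between 23.6 and 37.4 CPM (log2 fold change −1.17 ± 0.28, adjusted p = 0.00866). Groups overlapped for none of the 3 genes.

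Among the UGT genes, all 4 tested Ugt1a genes fell, and the other 5 of the 9 Ugt1a genes were too low to test. Ugt1a1, the bilirubin glucuronosyltransferase, was at 3.04, 2.17, 6.31 and 19.2 CPM in non-senescent and at 0.482, 0.201, 0.513 and 0.138 CPM in senescent cultures (log2 fold change −4.48 ± 0.78, adjusted p = 0.00153). Replicate 4 was the highest non-senescent culture, and without it the log2 fold change was −3.49. Ugt1a2 fell from between 2.49 and 10.0 CPM to between 0.335 and 0.946 CPM (log2 fold change −3.05 ± 0.56, adjusted p = 0.00197). Ugt1a7c, the most abundant of the group, fell from 43.2, 33.0, 32.9 and 41.7 CPM to 19.1, 16.9, 23.1 and 15.03 CPM (log2 fold change −1.02 ± 0.17, adjusted p = 0.00125). With the Ugt1a genes summed, the log2 fold change was −1.36 ± 0.22 (adjusted p = 0.00107).

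Ugt8a, the ceramide galactosyltransferase, fell from 26.6, 26.9, 24.7 and 52.8 CPM to 6.59, 5.63, 14.0 and 10.4 CPM (log2 fold change −1.84 ± 0.34, adjusted p = 0.00228). The Ugt2 group, which glucuronidates steroids, bile acids and drugs, went the other way in part. Ugt2b37 rose from 0.615, 0.525, 2.27 and 5.72 CPM to 8.11, 15.1, 10.8 and 7.98 CPM (log2 fold change 2.21 ± 0.67, adjusted p = 0.0228), and it lost its call without senescent replicate 2 (adjusted p = 0.0541) and when low counts were not filtered. Without non-senescent replicate 4 its log2 fold change was 3.22. Ugt2b34 was not called (log2 fold change −1.12 ± 0.47, adjusted p = 0.0776), though it was without non-senescent replicate 2 (adjusted p = 0.0391). With the Ugt2b genes summed no change was called (log2 fold change 0.20 ± 0.35, adjusted p = 0.673).

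Sulfotransferases showed some of the clearest falls. Sult1d1, which sulfates catecholamines and other small phenols, was among the 4 most abundant members of non-senescent PTEC by length. It fell from 240, 200, 329 and 532 CPM to 59.8, 75.3, 35.1 and 9.40 CPM (log2 fold change −2.86 ± 0.57, adjusted p = 0.00309). Replicate 4 was the highest of the non-senescent and the lowest of the senescent cultures. Without non-senescent replicate 4 the log2 fold change was −2.52. Sult1c2, a sulfotransferase for phenolic compounds, fell from 6.82, 5.45, 12.6 and 16.6 CPM to 0.997, 1.41, 1.32 and 1.14 CPM (log2 fold change −3.08 ± 0.37, adjusted p = 0.000206).

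Sult2b1, which sulfates cholesterol and other hydroxysteroids, fell from between 8.37 and 17.4 CPM to between 1.21 and 4.38 CPM (log2 fold change −2.12 ± 0.45, adjusted p = 0.0043). Sult1a1, the phenol sulfotransferase, had overlapping groups, with 3.84 to 11.9 CPM against 0.760 to 4.12 CPM (log2 fold change −1.61 ± 0.51, adjusted p = 0.0275). Its call was lost with the pair as a block (adjusted p = 0.0636), without non-senescent replicate 3 or 4 (adjusted p = 0.0653 and 0.0659) and without senescent replicate 3 (adjusted p = 0.061). Sult4a1, a brain-enriched member with little known enzyme activity, was the only SULT gene that rose, from 2.86, 3.25, 3.45 and 3.73 CPM to 10.2, 7.10, 15.6 and 11.9 CPM (log2 fold change 1.75 ± 0.25, adjusted p = 0.00051).

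**Figure D3:**
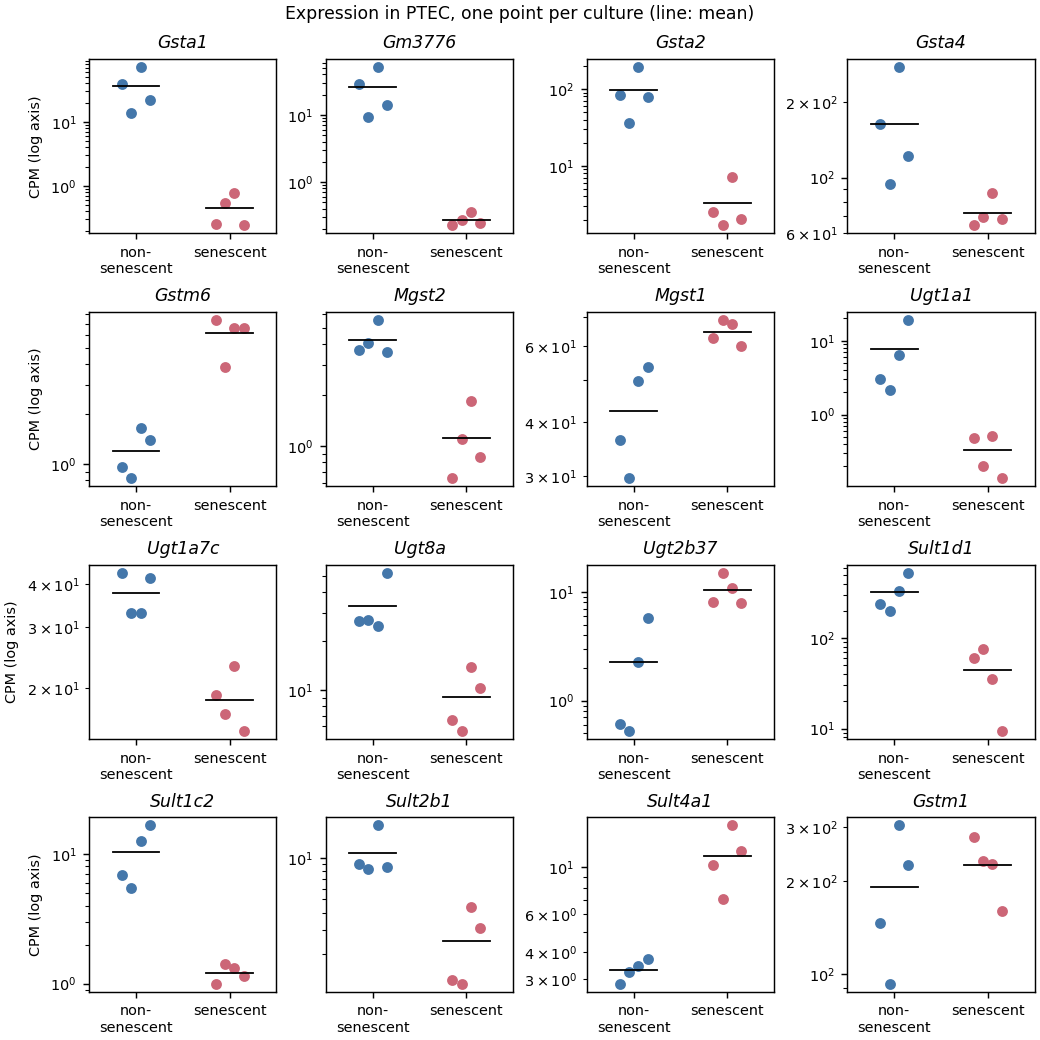
CPM on log axes of 16 members in each of the 4 non-senescent (blue) and 4 senescent (red) PTEC cultures, with a line at the group mean. Groups are apart for every gene shown except Gstm1, which overlaps and was not called.

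The other called members were named after their values were seen. Ugt2b36 was counted 0 to 2 times in each non-senescent and 21 to 75 times in each senescent culture, at most 2.03 CPM, and was not counted in any kidney (adjusted p = 0.000208). Gsto2 rose from at most 0.471 CPM to between 0.691 and 1.22 CPM (log2 fold change 1.72 ± 0.35, adjusted p = 0.00336). Ugt1a6a fell from between 0.584 and 1.51 CPM to between 0.173 and 0.354 CPM (log2 fold change −1.55 ± 0.40, adjusted p = 0.0111). Gstt1 fell with overlapping groups (log2 fold change −1.19 ± 0.40, adjusted p = 0.0354) and kept its call only in the fits without non-senescent replicate 1 or 2 or senescent replicate 3, the adjusted p being 0.0766 to 0.0994 in the other 5.

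Of the 25 called members, 21 were called in each of the 8 fits that left out 1 culture, the exceptions being Gstt1, Mgst1, Sult1a1 and Ugt2b37. Other cell markers moved with the comparison. Of 6 tested proximal tubule markers 3 fell (Hnf4a, Kap and Slc5a2), while the summed level was 229 to 833 CPM in non-senescent and 171 to 355 CPM in senescent PTEC. All 5 loop of Henle markers fell, from a sum of 17.9 to 52.8 CPM to 1.41 to 4.27 CPM. Among 6 tested fibroblast and pericyte markers 4 rose (Dcn, Pdgfrb, Col1a2 and Col3a1), and the sum went from 14.5 to 102 CPM to 108 to 411 CPM. Of 4 tested podocyte markers 2 rose (Synpo and Nphs1), with sums of 90.7 to 206 CPM in non-senescent and 213 to 465 CPM in senescent PTEC. Each of 4 proliferation markers fell, from a sum of 613 to 1201 CPM to 21.6 to 39.4 CPM. Of 2 tested distal tubule and collecting duct markers 1 fell, with sums of 4.06 to 23.2 CPM before and 0.770 to 2.38 CPM after. Of 5 heat shock and immediate early genes 2 rose, with sums of 144 to 228 CPM before and 211 to 300 CPM after. Among tested endothelial and leukocyte markers, 1 of 5 and 1 of 4 fell. The part of these differences in the results above was not tested.

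Genes that feed, carry away or regulate conjugation were examined as lists, whose counts stand beside the 39.8% of all genes called. The lists were broad. That of the glucuronic acid donor also held the β-glucuronidase gene Gusb and the hexokinase gene Hk1, and that of the sulfate donor held Sumf1. The export list included the organic anion transporter genes Slc22a6, Slc22a8 and Slco1a1. For glutathione supply and breakdown, 6 of 13 tested genes fell and 1 rose (53.8% called). Gsr, which regenerates reduced glutathione, fell from 426 ± 52.3 to 172 ± 33.6 CPM (log2 fold change −1.31, adjusted p = 0.000293). Slc7a11, the cystine importer, fell from 93.7 ± 29.3 to 30.8 ± 5.47 CPM (log2 fold change −1.61, adjusted p = 0.00046), and Gclm, the modifier subunit of the rate-limiting enzyme, fell by 0.71 on the log2 scale (adjusted p = 0.00453). Chac1, which degrades glutathione, rose (log2 fold change 1.01, adjusted p = 0.0317).

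For the glucuronic acid donor, 4 of 6 genes fell and none rose (66.7%), among them Ugdh, which makes UDP-glucuronic acid, from 233 ± 24.7 to 110 ± 4.61 CPM (log2 fold change −1.08, adjusted p = 0.000126). For the sulfate donor, 3 of 9 tested genes fell and 1 rose (44.4%). The sulfate transporter gene Slc26a1 fell from 18.6 ± 3.53 to 0.957 ± 0.352 CPM (log2 fold change −4.27, adjusted p = 7.66e-06), and Papss2, which makes the active sulfate donor, from 73.9 ± 21.1 to 30 ± 6.10 CPM (log2 fold change −1.30, adjusted p = 0.00152). Sumf1, which activates sulfatases, rose (log2 fold change 0.74, adjusted p = 0.00219). Of 6 tested export genes 4 fell (66.7%), led by the canalicular-type pump Abcc2, from 133 ± 47.2 to 19.5 ± 4.98 CPM (log2 fold change −2.78, adjusted p = 6.81e-05), and Abcg2 (log2 fold change −1.49, adjusted p = 9.97e-05).

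Of 11 tested regulators 4 fell and 1 rose (45.5%), close to the share over all genes. Hnf4a, a nuclear receptor of proximal tubule and liver cells, fell from 103 ± 22.3 to 13.1 ± 1.31 CPM (log2 fold change −2.98, adjusted p = 3.62e-06). Ahr, the dioxin receptor, fell (log2 fold change −1.03, adjusted p = 0.00609). The oxidative stress regulator Nfe2l2 had 198 ± 10.7 CPM in non-senescent and 148 ± 13.0 CPM in senescent PTEC and was not called.

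The 250 bases before each start site were then searched on both strands for short motifs bound by some of these regulators, in the RefSeq promoters of GRCm38.p6, where 62 of the 70 members matched, with 75 windows. The antioxidant response element core TGACNNNGC was in 4 windows (5.33%), those of Gsta3, Gstm5, Gstm7 and Mgst1, against 10.2% of all 32851 promoters. GCGTG, the core bound by the dioxin receptor, was in 14 windows (18.7%), against 28.2% of all. These are matches of letters only. The next lines show 2 of the genes with large falls, picked because they hold this motif, 5′ to 3′ on the gene's strand, with the GCGTG match, on either strand, in capitals.
Sult1d1, chr5:87569007-87569256, minus strand: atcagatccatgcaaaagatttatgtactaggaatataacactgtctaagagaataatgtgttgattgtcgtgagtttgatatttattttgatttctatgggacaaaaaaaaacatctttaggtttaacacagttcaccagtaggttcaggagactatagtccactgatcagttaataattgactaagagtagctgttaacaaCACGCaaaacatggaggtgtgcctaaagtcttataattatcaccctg
Gsta2, chr9:78347146-78347395, minus strand: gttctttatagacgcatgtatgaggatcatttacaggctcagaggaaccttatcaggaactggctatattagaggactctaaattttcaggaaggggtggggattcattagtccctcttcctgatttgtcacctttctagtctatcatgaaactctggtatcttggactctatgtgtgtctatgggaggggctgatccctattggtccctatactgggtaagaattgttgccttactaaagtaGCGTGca
The match began 47 bases before the RefSeq start of Sult1d1 and 7 bases before that of Gsta2. Both RefSeq windows lie at least in part within the longer GENCODE gene, that of Gsta2 wholly. Gsta1, Gm3776, Ugt1a1, Ugt1a2 and Sult1c2, which also fell, held no match in their windows.

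Kidneys of different ages were compared next, and few members were called. At 12 against 3 months, 45 members were tested, of which 2 were up-regulated and 2 down-regulated, 8.89% of those tested. Of all 17067 genes tested, 2.58% were called, 1.22% up and 1.36% down. At 24 against 3 months 4 members rose and 3 fell (15.6%), against 2.34% of all genes (1.89% up, 0.451% down). At 24 against 12 months 1 rose and 2 fell (6.67%), against 1.33% of all genes (0.896% up, 0.434% down). Groups did not overlap for 10 of the tested members at 12 against 3 months, 20 at 24 against 3 months and 17 at 24 against 12 months, where 20.3%, 22% and 25.6% of all genes had groups apart. The comparisons share their groups. The 3-month kidneys were counted on another gene set than the older kidneys, so age and gene set cannot be told apart in the comparisons with 3 months.

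Some kidneys stood apart from others of their age. The mean chi-square per gene between 12-month replicate 2 and the other 12-month kidneys was 252 and 256, against 16.95 between those, and for 24-month replicate 2 it was 129 and 126, against 43.2. Among 3-month kidneys it was 341 between replicates 2 and 3, 111 between 1 and 2 and 77.4 between 1 and 3, so replicate 2 lay farthest. The sum of proximal tubule markers without Kap was lowest in 3-month replicate 3, 12-month replicate 2 and 24-month replicate 2, at 8578, 10230 and 14350 CPM. The summed SULT level of these kidneys was the highest of each age, at 1930, 1449 and 1188 CPM, against at most 1194, 877 and 794 CPM in the others. A pair of fits, chosen after seeing the data, each left out 1 kidney per age. Without those 3 kidneys of the lowest marker sum, 1 member rose and 1 fell at 12 against 3 months, 2 rose and 2 fell at 24 against 3 months, and none was called at 24 against 12 months, where Ugt2b37 and Ugt2b38 had an adjusted p of 0.0596 each. Without the kidney farthest by chi-square at each age (replicate 2 in all), a choice that narrows the spread within groups by its construction, 5 rose and 11 fell at 12 against 3 months, 10 rose and 12 fell at 24 against 3 months, and 3 rose and 2 fell at 24 against 12 months. Of the calls made with all kidneys, those of Ugt2a3 and Gsto1 at 12 against 3 months and of Ugt2a3, Gstt1, Ugt2b37 and Ugt2b38 at 24 against 3 months held in both.

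**Figure D4:**
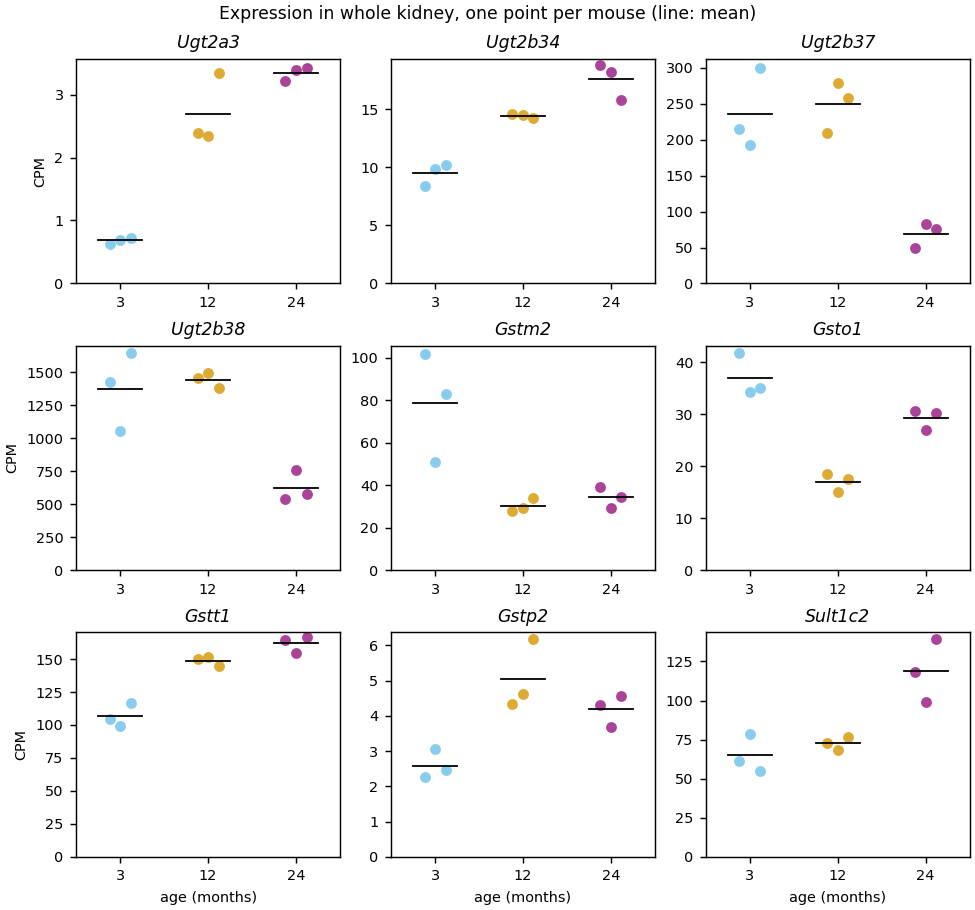
CPM of the 9 members called in any kidney comparison, 1 point per mouse and a line at the mean of 3 mice, by age in months. Ugt2b37 and Ugt2b38 are lower in all 24-month mice than in any younger mouse, whereas Ugt2a3 is lowest in the 3-month mice.

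Ugt2b38 and Ugt2b37, steroid and xenobiotic glucuronosyltransferase genes of 1 cluster on chromosome 5 whose coding sequences were 94.1% identical, were lower at 24 months. Ugt2b37 was at 214, 192 and 300 CPM at 3 months, at 210, 279 and 258 CPM at 12 months and at 48.6, 82.4 and 76.3 CPM at 24 months. Its log2 fold change was −1.77 ± 0.25 (edgeR, adjusted p = 0.0116) at 24 against 3 months and −1.85 ± 0.25 (adjusted p = 0.0187) at 24 against 12 months. All 24-month kidneys lay below every younger one. Ugt2b38 went from 1430, 1052 and 1646 CPM at 3 months and 1455, 1492 and 1380 CPM at 12 months to 539, 758 and 576 CPM at 24 months. The log2 fold change of Ugt2b38 was −1.14 ± 0.20 (adjusted p = 0.0231) against 3 months and −1.21 ± 0.20 (adjusted p = 0.029) against 12 months. With the Ugt2b genes summed, it was −1.19 (adjusted p = 0.0194) and −1.26 (adjusted p = 0.0249).

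The fall of Ugt2b37 against 3 months was called in each of the 6 fits that left out 1 of the kidneys compared. That of Ugt2b38 was called without 3-month replicate 2 or 24-month replicate 2 only, with adjusted p of 0.0641 to 0.113 in the other 4 fits. Against 12 months neither was called whichever kidney was left out, with adjusted p of 0.0544 to 0.0956 for Ugt2b37 and 0.0571 to 0.132 for Ugt2b38. The promoters of both genes were 84.8% identical over 264 aligned columns, gaps included, and held neither of the motifs searched. They are printed because these genes fell together.
Ugt2b37, chr5:87254789-87255038, minus strand: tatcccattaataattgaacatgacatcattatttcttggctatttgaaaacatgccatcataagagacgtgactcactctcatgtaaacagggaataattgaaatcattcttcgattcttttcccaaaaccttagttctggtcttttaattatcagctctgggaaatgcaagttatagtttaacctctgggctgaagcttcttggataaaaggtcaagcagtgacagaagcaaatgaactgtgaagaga
Ugt2b38, chr5:87424204-87424453, minus strand: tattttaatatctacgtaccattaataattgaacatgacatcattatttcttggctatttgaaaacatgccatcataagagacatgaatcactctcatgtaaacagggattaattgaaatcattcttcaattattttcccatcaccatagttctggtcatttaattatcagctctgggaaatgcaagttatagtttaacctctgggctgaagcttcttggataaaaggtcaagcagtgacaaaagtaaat

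In PTEC, Ugt2b38 stayed between 0.0307 and 1.77 CPM in all cultures. Kap, an abundant transcript of the proximal tubule, had 31170 to 39210 CPM at 3 months, 34990 to 39490 CPM at 12 months and 21790 to 27050 CPM at 24 months and was not called (adjusted p = 0.117 at 24 against 3 months). Without Kap, the summed level of the other proximal tubule markers was 8578 to 16210 CPM at 3 months, 10230 to 18250 CPM at 12 months and 14350 to 18920 CPM at 24 months.

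Ugt2a3, a glucuronosyltransferase for bile acids and phenols, was low but rose. It was at 0.630, 0.697 and 0.720 CPM at 3 months, at 2.39, 2.34 and 3.34 CPM at 12 months and at 3.22, 3.39 and 3.42 CPM at 24 months. Its log2 fold change was 1.97 ± 0.21 (adjusted p = 0.00346) at 12 and 2.29 ± 0.21 (adjusted p = 0.00115) at 24 months against 3 months, both called in each of 6 fits that left out a kidney. Ugt2b34 rose from between 8.38 and 10.2 CPM at 3 months to between 15.8 and 18.8 CPM at 24 months (log2 fold change 0.89 ± 0.14, adjusted p = 0.0137), a call lost when replicate 1 was left out at 3 months (adjusted p = 0.0847) or at 24 months (adjusted p = 0.0573). It had 14.3 to 14.6 CPM at 12 months, when the difference from 3 months missed the threshold by edgeR (adjusted p = 0.0511) and passed it by DESeq2 (adjusted p = 0.00238).

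Ugt3a2, the second most abundant member in young kidneys, was not called at 24 against 12 months (log2 fold change −0.36 ± 0.12, adjusted p = 0.199), although its 24-month values of 1447 to 1464 CPM lay below the 12-month values of 1745 to 1940 CPM.

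Among GST genes, Gstm2 was lower in both older groups, with 102, 50.9 and 82.8 CPM at 3 months, 28.0, 29.3 and 33.8 CPM at 12 months and 39.2, 29.4 and 34.2 CPM at 24 months. The log2 fold change of Gstm2 was −1.37 ± 0.25 (adjusted p = 0.0294) at 12 and −1.20 ± 0.24 (adjusted p = 0.0421) at 24 months against 3 months. Both calls were kept without 3-month replicate 2 only, with adjusted p up to 0.117 and 0.171 in the fits without another kidney. Gsto1 was at 41.8, 34.3 and 35.0 CPM at 3 months, at 18.5, 15.02 and 17.6 CPM at 12 months and at 30.6, 27.1 and 30.3 CPM at 24 months. It fell at 12 against 3 months (log2 fold change −1.12 ± 0.14, adjusted p = 0.00878) and rose at 24 against 12 months (log2 fold change 0.78 ± 0.14, adjusted p = 0.0403). The fall was not called when 3-month replicate 1 was left out (adjusted p = 0.0529), nor when 12-month replicate 3 was (adjusted p = 0.0606), and the rise was not called without any 1 of the 6 kidneys (adjusted p = 0.0955 to 0.161).

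Gstp2 rose at 12 against 3 months, from 2.26 to 3.05 CPM to 4.34 to 6.17 CPM (log2 fold change 0.96 ± 0.20, adjusted p = 0.0468), and kept its call without 3-month replicate 2 only, with adjusted p of 0.0798 to 0.206 without another kidney. With the near copies of the Gstp group summed, the log2 fold change was −0.06 (adjusted p = 0.888). Gstp2 and Gsto1 carried different identifier versions in the gene sets of 3-month and older kidneys, so they had no value in the fit on matching versions. Gstt1, a theta-class GST that acts on halogenated solvents, rose from between 98.9 and 117 CPM at 3 months to between 154 and 167 CPM at 24 months (log2 fold change 0.60 ± 0.13, adjusted p = 0.0443), and was not called whichever kidney was left out (adjusted p = 0.0526 to 0.213). At 12 months it had 145 to 152 CPM (adjusted p = 0.0818 against 3 months). Gstm6 and Gstm7, both raised in senescent PTEC, missed the threshold of edgeR at 24 against 3 months (log2 fold change 1.17 ± 0.27, adjusted p = 0.0623, and 0.86 ± 0.19, adjusted p = 0.061). Without 3-month replicate 2, Gstm7 passed it (adjusted p = 0.0235), and DESeq2 called both (adjusted p = 0.00309 for Gstm6 and 0.00748 for Gstm7).

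Sult1c2 was the only sulfotransferase called by edgeR with all kidneys in the fit. It rose from 61.2, 78.7 and 55.0 CPM at 3 months to 118, 98.9 and 139 CPM at 24 months (log2 fold change 0.87 ± 0.18, adjusted p = 0.0464), with 68.2 to 76.9 CPM at 12 months, and kept its call without 3-month replicate 2 only, with adjusted p of 0.0569 to 0.221 without another kidney. Its call was also lost with matching identifier versions only (adjusted p = 0.0507), the compared ages alone (0.0981), no filter on low counts (0.0688) or the replicate block (0.163). In PTEC the same gene fell with senescence, and the difference between the experiments was not tested. Sult1d1 varied widely within each age, from 602 to 1853 CPM at 3 months, 716 to 1359 CPM at 12 months and 626 to 1071 CPM at 24 months, and was not called. Without the kidneys farthest by chi-square, Sult1d1 was called lower at 12 and 24 against 3 months (log2 fold change −0.98 and −1.20, adjusted p = 0.0148 and 0.00552). Without those of the lowest marker sum it was not called (adjusted p = 0.744 and 0.383). Sult2b1, Sult4a1 and Sult2a3 were the uncalled SULT genes with the lowest adjusted p, at 0.0864 (12 against 3 months), 0.0827 (24 against 12 months) and 0.0978 (24 against 3 months) by edgeR. DESeq2 called all 3 in these comparisons (adjusted p = 0.0224, 0.0195 and 0.0256), and Sult1c2 at 24 against 12 months (adjusted p = 0.0217). Sult4a1 was near the floor, with 0.0987 to 0.121 CPM at 12 months and 0.336 to 0.638 CPM at 24 months. Sult2a3 had a mean under 1 CPM in all 5 groups.

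Of the other pathway genes, edgeR called Slco1a1 and Dpep1 in the kidneys. Slco1a1, an organic anion transporter that carries steroid conjugates, rose from 473 ± 58.1 CPM at 3 months to 804 ± 106 CPM at 12 months (log2 fold change 0.77, adjusted p = 0.0489) and was at 174 ± 20.9 CPM at 24 months (log2 fold change −1.44, adjusted p = 0.00398 against 3 months, and −2.21, adjusted p = 0.00391 against 12 months). Dpep1, a dipeptidase that trims glutathione conjugates, rose from 93.8 ± 3.02 to 151 ± 14.5 CPM at 24 against 3 months (log2 fold change 0.68, adjusted p = 0.0422). In the 3 kidney comparisons edgeR called 0 of 6 tested glucuronic acid donor genes, 0 of 10 sulfate donor genes and 0 of 12 regulators. At an unadjusted p under 0.05 these lists held 0 to 3, 0 to 3 and 1 to 3 genes per comparison. DESeq2 called 1 of them, the nucleotide sugar transporter gene Slc35d2 at 24 against 12 months. In the glutathione and export lists DESeq2 also called Chac1, Dpep1, Nat8 and Abcc3 at 12 against 3 months, Chac1 at 24 against 3 months, and Ggct and Nat8 at 24 against 12 months.

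Other markers moved with age as well. At 24 against 3 months 3 of 13 proximal tubule markers rose (Slc5a2, Slc5a12 and Miox), 3 of 4 proliferation markers rose and 2 of 7 leukocyte markers rose. Cdkn1a was at 12.2 ± 0.729 CPM at 3 months, fell to 4.21 ± 0.949 CPM at 12 months (adjusted p = 0.011) and was higher at 24 months, at 28.0 ± 5.49 CPM, than at 3 months (adjusted p = 0.0212) or 12 months (adjusted p = 0.00391). At 12 against 3 months the collecting duct marker Aqp2 fell (adjusted p = 0.0223) and the B cell marker Cd79a rose (adjusted p = 0.0221). The summed fibroblast and pericyte markers were at 124 to 142 CPM at 3 months, 151 to 161 CPM at 12 months and 192 to 234 CPM at 24 months. The summed heat shock and immediate early genes, which respond to handling, were at 60.1 to 165 CPM at 3 months and 25.7 to 39.0 CPM at 12 months, and at 770, 191 and 83.3 CPM in the 24-month kidneys, replicate 1 being the highest. The part of these differences in the age results was not tested.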

How the data were processed

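The labels give 8 PTEC cultures and 9 kidneys, 1 count table each. Poly(A) RNA libraries were stranded and sequenced in pairs of 76-base reads. The authors describe these steps, and nf-core/rnaseq 1.4.2 with GENCODE release M18 (GRCm38), for a pool of 9 libraries. They do not say which libraries these were. Raw counts per gene, not normalised, were deposited. The aligner, counter and strand setting are not given in the sources used here, so near copies and overlapping or antisense genes may share reads. PTEC, 3-month and older kidneys were counted on gene sets of 53715, 54146 and 55401 genes, so release M18 cannot be taken to hold for all 17 libraries. Identifiers were matched without their version, and symbols, lengths and positions came from release M21. Promoters came from RefSeq.

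PTEC and kidneys were fitted apart in R 4.3.3 with edgeR 4.0.16 (TMM, filterByExpr, robust quasi-likelihood test, Benjamini-Hochberg adjustment over all tested genes), and a gene was called where the adjusted p was below 0.05 and the fold change exceeded 0.5 in size on the log2 scale. Adjusted p-values come from edgeR unless DESeq2 is named. CPM used TMM-scaled library sizes, and RPKM exon lengths of all transcripts merged. DESeq2 1.42.0, limma 3.58.1, Python 3.11.15, pandas 2.3.3, numpy 2.4.6, Biopython 1.88 and matplotlib 3.10.9 were also used. The method was tested on simulated data.

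Members, lists and alternatives were chosen with earlier results of these data known. Named members are those called (where over 24, the 12 largest rises and falls at 1 CPM or more), the most abundant of each class, Gm3776 and the 3 uncalled members with the lowest adjusted p in each comparison. Of the other pathway lists, at most 3 called genes per direction are named. Replicate numbers were taken to pair the PTEC cultures, though the labels do not say what a number marks. Deviations from group means correlated by 0.186 to 0.614 over the 4 same-numbered pairs. Over the 12 other pairs they correlated by −0.492 to 0.265, so the ranges overlapped. Nothing says whether the samples of a group came from separate mice for PTEC, so p-values measure the spread between these cultures. Results for some genes of the regulator list are not reported here.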

Additional observations from a re-analysis of the deposited data

Results flagged for a closer look

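In 6 of 82 sets of 4 PTEC cultures, 1 culture lay far from the other 3 by Dixon's criterion, which chance gives in about 1 in 20 sets. Non-senescent replicate 3 was highest for Sult2b1, at 17.37 CPM against 8.37 to 9.007 CPM, and for Gstp2, at 1.294 CPM against 0.2954 to 0.3691 CPM. Senescent replicate 3 was highest for Gsta2, at 7.078 CPM against 1.675 to 2.541 CPM, and for Gsta3, at 37.96 CPM against 27.93 to 29.27 CPM. Non-senescent replicate 4 was highest for Ugt8a, at 52.75 CPM against 24.67 to 26.85 CPM, and for Ugt1a6a, at 1.513 CPM against 0.5841 to 0.6893 CPM. The kidney groups of 3 were not examined in this way.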

How the results depend on the processing

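No called log2 fold change reversed its direction under an alternative that gave it a value. Of uncalled members named in the report, Gstm1 (−0.0045 to 0.54 leaving out each culture) and Gstt2 (−0.36 to 0.075) in PTEC, and Sult1d1 at 12 against 3 months (−0.66 to 0.15 leaving out each kidney) and at 24 against 12 months (−0.56 to 0.065), changed sign. In PTEC, the counts of 18 members lower and 7 higher stayed within 1.5 times under DESeq2 with the study's settings, DESeq2 size factors, other low-count filters, a log2 fold change above 1 and the replicate block. With near copies summed, 3 genes were higher. Here and below, this setting summed whole groups, such as all Gstm and all Ugt2b genes, not only near copies. Of the genes merged, Gstm2, Gstm6 and Gstm7 shared 1.79%, 2.5% and 0% of their 76-base windows with other genes. For Ugt2b36 and Ugt2b37 the shares were 0% and 6.05%. The part of shared reads in the lost calls was not tested. Leaving out each culture gave 16 to 20 lower and 5 to 9 higher.

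Kidney calls were fewer and depended on the setting, and the cause was not tested. At 12 against 3 months, members lower numbered 2, and 4 under DESeq2, 1 with the replicate block, 1 with near copies summed, 0 with the compared ages alone, 1 with matching identifier versions only and 0 to 3 leaving out each kidney. Members higher numbered 2, and 4 under DESeq2, and 1 with no filter, a log2 fold change above 1, the block, near copies summed, the compared ages alone or matching versions, and 1 to 2 leaving out each kidney. At 24 against 3 months, members lower numbered 3, and 1 with the block, near copies summed or the compared ages alone, and 1 to 4 leaving out each kidney. Members higher numbered 4, and 7 under DESeq2, 2 with no filter, 1 with a log2 fold change above 1, 1 with the block, 2 with the compared ages alone and 1 to 4 leaving out each kidney. At 24 against 12 months, members lower numbered 2, and 0 with the block, 1 with near copies summed and 0 leaving out any 1 kidney. The 1 member higher became 3 under DESeq2 and 0 with no filter, a log2 fold change above 1, the block, the compared ages alone, matching versions or any kidney left out. With the compared ages alone, calls were lost for Gstm2, Gsto1 and Gstp2 at 12 against 3 months, Gstm2, Gstt1, Sult1c2 and Ugt2b38 at 24 against 3 months and Gsto1 at 24 against 12 months. With no filter they were lost for Gstp2, for Gstt1 and Sult1c2, and for Gsto1 in the same order. A pair of alternatives chosen after seeing the data left out 1 kidney per age. Leaving out those of the lowest proximal marker sum gave 1 lower and 1 higher at 12 against 3 months, 2 and 2 at 24 against 3 months, and 0 and 0 at 24 against 12 months. Leaving out those farthest by chi-square gave 11 lower and 5 higher, 12 and 10, and 2 and 3. Same-numbered kidneys are different mice. They correlated by −0.701 to 0.557 over 9 pairs, against −0.510 to 0.747 over the 18 other pairs. Between 12 and 24 months the same-numbered pairs correlated by 0.384, 0.557 and 0.172. In PTEC the block changed no other call than those given with the results.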
